A study of Drosophila melanogaster with 4 samples.

Results

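The regions described here are the H3K9me1 clusters along the X arm of Drosophila melanogaster, taken from the combined list of the replicate set by position alone: each starts on X at least 1 Mb from the telomere end of the sequence and at least 2 Mb from its centromere end (FlyBase release 5, per the file headers; coordinates counted from 1). The interval is 19.4 Mb long. It holds 2563 of the 13114 combined clusters and 2563 of the 2950 on the whole X arm. The same interval holds 1261 of the 5480 clusters of ChIP replicate 1 and 1394 of the 6062 of ChIP replicate 2. The nearest combined clusters on either side of the limits had similar scores: the last one outside at the telomere end started at 999507 (score 0.44), the first inside at 1015892 (score 0.44), the last inside at 20412736 (score 0.53) and the next outside at 20431594 (score 0.48).

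The study mapped the mark by chromatin immunoprecipitation and sequencing in wild-type Oregon-R embryos, named Oregon-R-modENCODE in full, collected at 14 to 16 h and fixed in 1.8% formaldehyde. It has 2 ChIP samples, for which a new lot of the H3K9me1 antibody was incubated for 15 h with the chromatin, and 2 input samples of the same strain and stage, which the labels give as the controls of the ChIP lists with the same number. The input samples have no values here, so no level below has a separately measured background. The labels do not say whether replicates 1 and 2 came from separate collections, and the spread between them may be technical. The chromatin is of whole embryos, so all tissues are mixed, and the labels give no sex.

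H3K9me1 is histone H3 with a single methyl group on lysine 9. It is the first product on the way to the di- and trimethylated forms, which HP1 proteins bind and which mark heterochromatin in flies, and it is itself found more widely. The X chromosome of the fly is known for dosage compensation: in males the MSL complex binds active X genes and raises their transcription to match the pair of X chromosomes in females. The files hold positions and scores with no gene names, and gene annotation on release 5 was not used here, so regions are given by coordinates.

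Clusters on the X interval were dense, close together and somewhat wider and higher in score than those of the autosomal arms. Replicate 1 had 64.9 clusters per Mb and replicate 2 had 71.8, against 33.8 and 35.9 on the autosomal intervals, which are arms 2L, 2R, 3L and 3R cut in the same way and joined (84.6 Mb). Clusters covered 15.1% of the bases of the X interval in replicate 1 and 18.1% in replicate 2, with mean 16.6% ± 2.1 (SD, n = 2). On the autosomal intervals they covered 7.15% and 8.13%. The X interval thus had 2.11 times and 2.22 times the autosomal share, a mean ratio of 2.17 ± 0.08 (SD, n = 2). The ratio exceeded 1 in both replicates, by more than the spread between them. With 2 ChIP samples the exact sign-flip permutation test over samples cannot go below p = 0.5 (two-sided), and p was 0.5 for this ratio and for each difference between X and the autosomes that had the same sign in both replicates. No single autosomal arm overlapped X: their shares ran from 6.10% to 9.59% over the arms and replicates. The ratio rose to 3.71 among clusters that scored at or above their list's median, and X scores were the higher, as given next.

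The width of a typical cluster was similar in the replicates. The median was 1956 bp in replicate 1 and 2017 bp in replicate 2, against 1814 bp and 1888 bp on the autosomal intervals. The difference of 136 bp ± 9 (SD, n = 2) was small beside the range of widths within a list. On X the middle part of the widths, between the lower and upper quartiles, ran from 1531 bp to 2534 bp in replicate 1 and from 1580 bp to 2858 bp in replicate 2. No cluster of either replicate was under 1301 bp. The tail of wide clusters differed more: clusters of at least 7 kb numbered 17 and 33 on X, or 0.88 and 1.70 per Mb, against 0.19 and 0.38 per Mb on the autosomal intervals. In the combined list 154 clusters of the X interval reached 7 kb, and they held 21.4% of its clustered bases.

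Each cluster carries a deposited score whose scale is not stated. For 99.9%, 99.6% and 91.7% of the X clusters of replicate 1, replicate 2 and the combined list, 2 raised to the score was a ratio of whole numbers after division by 1 constant per list (denominator at most 500, relative tolerance 1e-11). When the values were first scaled by random amounts of at most 1%, 0% passed. A log2 ratio is therefore the reading used for the score. The median score on X was 0.83 in replicate 1 and 0.78 in replicate 2, ratios of 1.78 and 1.72. On the autosomal intervals it was 0.70 and 0.67. The X median was higher by 0.12 ± 0.01 (SD, n = 2) on this log2 scale.

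Scores lay higher on X at the low and high percentiles as well as at the median, but not at the maximum. The 5th percentile was 0.65 and 0.59 on X and 0.54 and 0.50 on the autosomal intervals. The 95th was 1.05 in each replicate on X and 0.92 and 0.89 on the autosomes. The single highest score was 1.81 and 1.51 on X and 2.50 and 3.67 on the autosomal intervals. Wide clusters scored higher: across the clusters of a list on X, Spearman's rho between score and width was 0.52 in replicate 1 and 0.65 in replicate 2 (n = 1261 and 1394 clusters, a description across clusters of 1 library). On the autosomal intervals rho was 0.55 and 0.63. Neighbouring clusters on X resembled each other little in score, with rho of 0.02 and 0.13 between a cluster and the next.

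Spacing was measured as the gap between the end of a cluster and the start of the next in the same list. The median gap on X was 6495 bp in replicate 1 and 5529 bp in replicate 2, against 11747 bp and 12085 bp on the autosomal intervals. Gaps on X were thus 0.55 and 0.46 times as long, and no autosomal arm had a median below 9766 bp. Short gaps were common: 25.3% and 27.9% of the X gaps were under 2 kb, against 17.4% and 16.6% on the autosomal intervals. Long ones were scarce. Gaps over 50 kb made up 4.68% and 3.73% of the X gaps (59 and 52 of them) and held 30.1% and 24.9% of the bases between clusters. On the autosomal intervals such gaps made up 16.6% and 15.7% and held 61.6% and 57.2% of those bases. Relative to their own mean, gaps varied to a like extent on X (SD over mean 1.59 and 1.51) and on the autosomal intervals (1.55 and 1.47). Keeping only clusters at least as wide as the median of their list lengthened the mean of the 2 medians on X from 6012 bp to 10861 bp, and the autosomal value was then 27575 bp.

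Clusters came in chains. Here a chain is a set of neighbouring clusters separated by gaps of at most 2 kb. Of the clusters on X, 43.7% of replicate 1, 47.9% of replicate 2 and 69.5% of the combined list had a neighbour in such a chain. On the single autosomal arms the shares ran from 27.8% to 34.1% in replicate 1, from 26.4% to 31.8% in replicate 2 and from 48.7% to 55.6% in the combined list. The median gap was also shorter on X, and its part in this difference was not tested. The X interval held 55 combined chains of at least 20 kb, or 2.83 per Mb, against 0.20 to 0.77 per Mb on the autosomal arms. The replicate lists held few such chains. X had 3 in each replicate (0.15 per Mb). The autosomal arms had 0 in replicate 1 and 0 to 0.17 per Mb in replicate 2. The longest combined chain of the 5 arms was on 3R, at 72290 bp.

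The longest combined chain on X ran from 17826087 to 17892613, 66527 bp with 6 clusters. Replicates 1 and 2 covered 70.9% and 81.2% of it. The next, from 19820742 to 19885371 (64630 bp), was of another make-up, with 16 clusters, and was covered at 19.4% and 46.4%. The replicates differed more on this chain than on the other 4 of the longest 5. The chain from 12164919 to 12218464 (53546 bp, 5 clusters) was covered at 56.8% and 54.1%. The remaining pair ran from 16391980 to 16438942 (46963 bp, 6 clusters), with 61.2% and 63.1% covered, and from 4999340 to 5045997 (46658 bp, 4 clusters), with 64.0% and 68.4%.

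The share of bases inside clusters was then followed across window sizes. In 10 kb windows, 45.6% of the 1942 windows of the X interval held no clustered base in replicate 1 and 40.7% in replicate 2. In windows of 100 kb, 4 and 2 of 194 were empty, and in windows of 200 kb none of 97 was. On the autosomal arms the mean share of empty 100 kb windows was 11.1% and 9.35%. The unevenness of cover, the SD over windows divided by their mean, was 1.28 and 1.19 on X at 10 kb. It fell to 0.64 and 0.61 at 100 kb and to 0.37 and 0.36 at 500 kb. From 20 kb to 500 kb windows it fell 2.80-fold and 2.68-fold, where windows with unrelated values would give a fall of 5-fold for windows 25 times as long. The mean unevenness of the autosomal arms fell 3.11-fold and 3.02-fold, also less than 5-fold. 

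X was the more evenly covered arm in relative terms, but not in absolute ones. The SD over 100 kb windows was 9.68 and 10.99 percentage points on X in replicates 1 and 2. On the autosomal arms it was 5.79 to 7.34 and 6.00 to 7.70. Mean cover was also higher on X, and its part in the relative unevenness was not tested. At 100 kb the mean unevenness was 0.62 ± 0.02 on X and 0.86 ± 0.04 over the autosomal arms (SD, n = 2 for each), and the lowest autosomal arm stood at 0.80. The order held at each of the 6 window sizes from 10 kb to 500 kb. For the number of clusters per window, the variance over the mean was 1.94 and 1.73 on X at 100 kb. The autosomal arms ran from 2.03 to 2.26 in replicate 1 and from 1.79 to 1.96 in replicate 2, so X was below each arm of the same replicate, and X minus the mean of the arms was -0.18 ± 0.03 (SD, n = 2). X was likewise below each arm at 10 kb (0.95 and 0.96, lowest arm 1.07 and 1.01) and at 20 kb (1.16 and 1.11, lowest arm 1.26 and 1.16). At 50 kb and 500 kb X lay among the arms of the same replicate. At 200 kb it did so in replicate 1 (2.67) and was just above them in replicate 2 (2.29, highest arm 2.28), so the order of X and the arms depended on the window size. Clusters of a list do not overlap, and X had more of them per Mb. The part of this density in the variance over the mean was not tested.

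**Figure D1:**
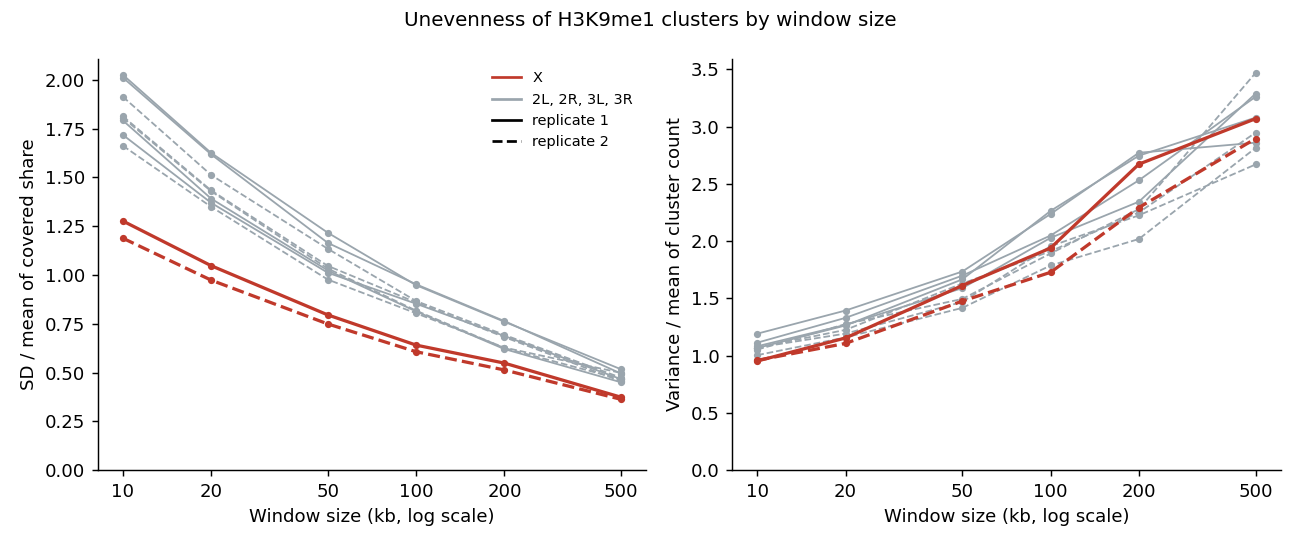
Unevenness of clusters against window size (kb, log scale) for X in red and the 4 autosomal arms in grey, with solid lines for replicate 1 and dashed lines for replicate 2. The left panel plots the SD of the covered share over its mean, where X falls from 1.28 and 1.19 to 0.37 and 0.36 and lies under the grey lines. The right panel plots the variance of cluster counts over their mean, where X at 100 kb (1.94 and 1.73) lies under the grey lines of the same replicate and at 50 kb and 500 kb lies among them.

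The resemblance of stretches was weaker at longer distances, though not evenly so. Between neighbouring 20 kb windows on X the correlation of cover was 0.30 in replicate 1 and 0.32 in replicate 2 (970 pairs of windows that share a library). At a distance of 100 kb it was 0.09 and 0.12, at 200 kb 0.04 and 0.06, and at 300 kb -0.05 and -0.06. In between, at 240 kb, it was 0.10 and 0.11, as at 100 kb. The replicates were close at these distances and parted at others, with 0.03 and 0.10 at 160 kb and 0.02 and 0.09 at 400 kb.

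Hot and cold stretches were defined in 100 kb windows tiled from the start of the interval. A hot window had at least 1.5 times the mean cover of the interval in each replicate (at least 22.6% and 27.1%), and a cold window at most 0.5 times the mean in each (at most 7.54% and 9.04%). Of 194 windows, 24 were hot (12.4%) and 34 were cold (17.5%). The background over the 5 long-arm intervals, X included and each arm set against its own mean, was 14.8% hot and 21.9% cold, so the X shares lay slightly below it. Hot windows were 12.9% to 18.8% of the windows of single autosomal arms, and cold ones 19.9% to 24.5%. Judged by 1 replicate alone, 38 and 36 windows were hot and 42 and 45 were cold, and 0 windows were hot in one replicate and cold in the other. The 24 hot windows held 26.5% and 25.1% of the clustered bases of replicates 1 and 2, and the 34 cold ones 3.84% and 4.33%.

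**Figure D2:**
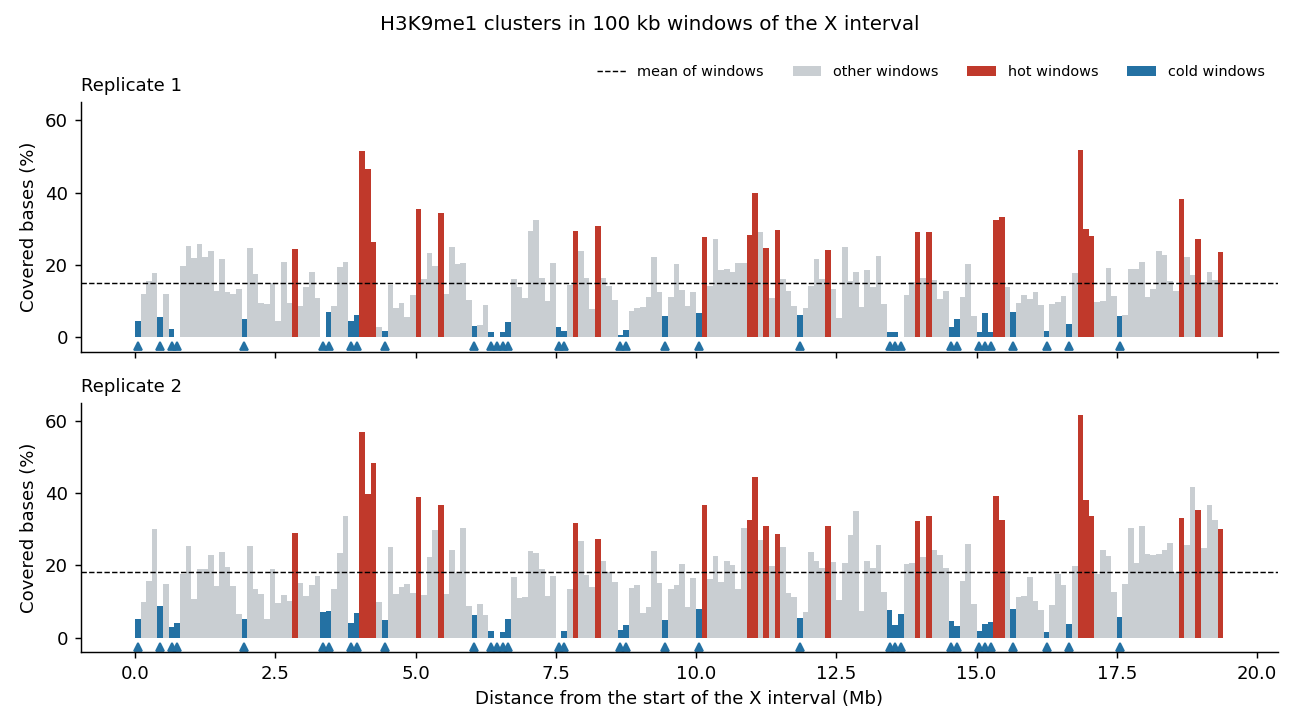
Covered bases (%) in 100 kb windows along the X interval, plotted by distance from its start (Mb), with replicate 1 above and replicate 2 below. Red bars are the 24 hot windows, blue bars with triangles the 34 cold windows, grey bars the rest, and the dashed line is the mean of the windows. The highest red bars reach 51.8% in replicate 1 and 61.7% in replicate 2, and the same windows stand out in both panels.

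The most covered window contains the longest chain on X. It ran from 17800001 to 17900000, with replicate 1 at 51.8% and replicate 2 at 61.7% (56.8% ± 7.0, SD, n = 2). The second, from 5000001 to 5100000, was at 51.5% and 57.0%, and 86.7% of it lay inside combined clusters. Its neighbours continued the stretch. The window from 5100001 to 5200000 was at 46.4% and 39.8%, and that from 5200001 to 5300000 at 26.4% and 48.4%, a gap between the replicates that was among the widest on X. The window from 12000001 to 12100000 was at 40.0% and 44.5%.

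Hot windows joined into 4 runs of more than 1 window, and the rest stood alone. The run from 5000001 to 5300000 was covered at 41.4% and 48.4%, and that from 17800001 to 18100000 at 36.6% and 44.5%. The runs from 11900001 to 12100000 (34.2% and 38.5%) and from 16300001 to 16500000 (32.7% and 35.9%) spanned 2 windows each. Cold windows joined more often, with 22 of the 34 in 9 runs. The longest cold run, of 4 windows, went from 7300001 to 7700000 and was covered at 1.85% and 2.18%. Runs of 3 windows lay from 14400001 to 14700000 (1.04% and 5.89%) and from 16000001 to 16300000 (3.20% and 3.33%). The latter ended where the hot run from 16300001 began, and at 3 places along the interval a hot window lay directly beside a cold one.

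The coldest windows were nearly free of clusters in both replicates. The window from 7400001 to 7500000 held 0% in each. The window from 8500001 to 8600000 was at 2.79% and 0%, that from 9600001 to 9700000 at 0.749% and 2.10%, that from 17200001 to 17300000 at 1.63% and 1.47%, and that from 7500001 to 7600000 at 1.60% and 1.55%. The combined list covered 3.14% to 8.79% of these 5 windows. The depth of the libraries is unknown, and assembly gaps and repeats were not measured, so an empty window does not show absence of H3K9me1.

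Windows chosen as hot or cold in one replicate were mostly high or low in the other, though not all passed the same threshold there: 24 of the 38 hot by replicate 1 and 34 of its 42 cold ones were so in both. The 38 windows that were hot by replicate 1 had a median cover of 30.9% in replicate 2 (18.9% to 61.7%). The 42 cold by replicate 1 had 5.22% (0% to 15.0%), and the other 114 had 17.3% (5.17% to 41.8%), a range that overlaps both. In the opposite direction, the 36 windows hot by replicate 2 had a median of 27.5% in replicate 1, the 45 cold ones 4.61% and the other 113 had 14.1% (2.88% to 32.4%). The lowest value of the windows hot by replicate 1 lay above the highest of its cold windows, in the library that had not chosen them. The same held in the opposite direction (15.6% against 13.5%).

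In the replicate lists, more clusters, rather than wider ones alone, made up the hot windows. They held 11.4 and 11.2 clusters per window in replicates 1 and 2, against 1.79 and 2.35 in cold windows. The median width was 2138 bp and 2266 bp in hot windows and 1691 bp and 1792 bp in cold ones, and the median score was 0.86 and 0.80 against 0.78 and 0.75. Width and number set the cover by which the windows were chosen, so these values describe the classes and were not tested. In the combined list the contrast was smaller in number, with 14.6 clusters per hot window, 8.24 per cold window and 14.2 per window of the rest. The median widths there were 2397.5 bp in hot windows, 1676 bp in cold ones and 2028 bp in the rest.

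**Figure D3:**
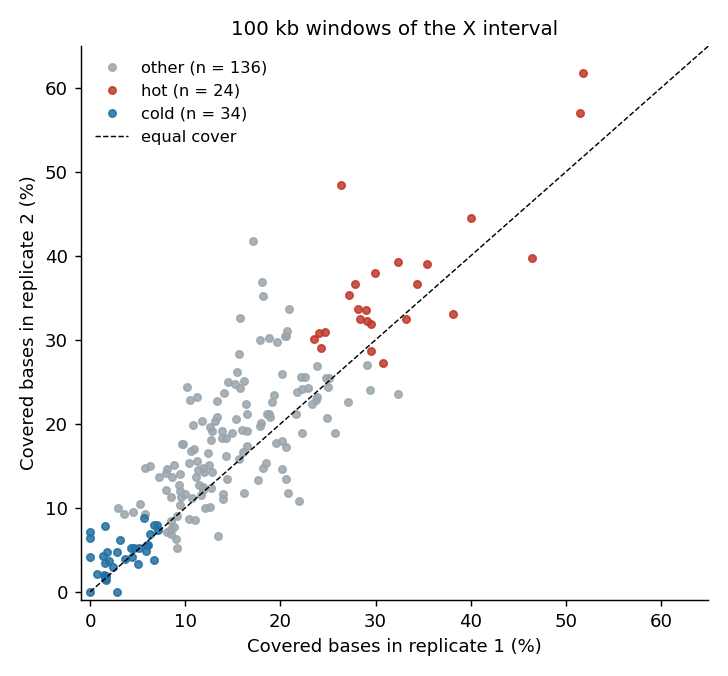
Covered bases (%) of each 100 kb window of the X interval in replicate 1 (horizontal) and replicate 2 (vertical), with 24 hot windows in red, 34 cold in blue and the rest in grey. The dashed line marks equal cover, and more points lie above it (138) than below it (55).

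Over the 194 windows cover in the replicates rose together, with Pearson's r of 0.87 and Spearman's rho of 0.87 (windows of 1 arm, no independent replicates). At 10 kb r was 0.76 and rho 0.71, and at 500 kb 0.91 and 0.89 (38 windows). Replicate 2 was the higher in 138 windows and replicate 1 in 55, with a median difference of 2.51 percentage points. The largest difference was near the proximal end of the interval. The window from 19800001 to 19900000 was at 17.1% in replicate 1 and 41.8% in replicate 2. The hot window from 5200001 to 5300000, given above, came second with 22.0 percentage points, and that from 20100001 to 20200000 followed, at 18.0% and 36.8%. The largest difference the other way was from 2000001 to 2100000, at 21.9% and 10.8%.

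Stretches free of both replicates were few on X. There were 35 of over 50 kb, or 1.80 per Mb, together 13.1% of the interval. The autosomal arms had 3.80 to 5.42 per Mb, which took up 33.0% to 47.9% of their intervals. Their longest was 200154 bp on 2L and 278747 bp to 394686 bp on 2R, 3L and 3R. X also had more clusters per Mb, and the part of this density in the scarcity was not tested. The longest free stretch on X went from 7330463 to 7573282, 242820 bp, and 6 combined clusters covered 2.00% of it. The others over 100 kb were from 1724644 to 1838068 (113425 bp, 12.0% covered by combined clusters), from 9602792 to 9711933 (109142 bp, 4.23%) and from 1607036 to 1713656 (106621 bp, 3.01%). The last of the 5 longest, from 14501703 to 14595598, was 93896 bp long. The combined list left shorter gaps: its longest were 9603136 to 9703193 (100058 bp), 1618273 to 1704563 (86291 bp), 7488201 to 7573214 (85014 bp), 7330591 to 7396197 (65607 bp) and 16087046 to 16148159 (61114 bp). The first 4 of these gaps lay inside the free stretches just named, and all 5 lay within runs of cold windows.

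The last comparison was of the combined clusters with the replicates they were made from, which is no independent evidence. The 2 replicates shared 1.92 Mb of covered bases, or 9.87% of the X interval, and 5.22% was covered in replicate 1 alone and 8.20% in replicate 2 alone. Their Jaccard index, the shared part of all bases covered by either, was 0.424 on the X interval and 0.358 to 0.390 on the autosomal ones. Clusters also covered 2.17 times the autosomal share on X (mean of the replicates), and the part of this denser cover in the index and in the overlaps that follow was not tested. An overlap of at least 1 bp with the other replicate was found on X for 71.6% of replicate 1 (903 clusters) and for 62.6% of replicate 2 (873), against 59.4% to 66.8% and 54.1% to 59.1% on single autosomal arms. Those that touched were wider and scored slightly higher, with medians of 2079 bp and 0.84 against 1570 bp and 0.81 in replicate 1. In replicate 2 these were 2297 bp and 0.81 against 1675 bp and 0.75.

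Of the 2563 combined clusters on X, 747 (29.1%) were touched by both replicates, 288 (11.2%) by replicate 1 alone, 420 (16.4%) by replicate 2 alone and 1108 (43.2%) by neither. Over the whole combined list 23.8% were touched by both and 47.2% by neither. Each replicate covered at least 50% of 462 X clusters, or 18.0% (exact binomial 95% interval 16.6% to 19.6%, counting error only), where the background over the whole list was 16.1%. The whole list includes X, and the autosomal intervals alone stood at 15.8%. The interval leaves out the spread between samples and any likeness of neighbouring clusters, so it does not test this difference. In the width classes from 1301 bp to under 7000 bp the share was lower on X, as given below. The 747 held 53.7% of the clustered bases and had a median width of 4338 bp and a median score of 0.69. The 1108 held 23.4%, with a median of 1382 bp and 0.53. Of these 1108, 465 were under 1301 bp and so narrower than any replicate cluster. A combined cluster seldom contained many replicate clusters: 42 held at least 3 of replicate 1 and 37 at least 3 of replicate 2, and the most was 5 in either.

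Support rose steeply with width. Of the 505 combined clusters on X under 1301 bp, none was touched by both replicates and 92.1% were touched by neither. No replicate cluster was under 1301 bp, so none could lie wholly inside a cluster of this class. A touch of 1 bp does not need this, and replicate 1 alone touched 23 of the class and replicate 2 alone 17. The part of the smallest widths in the low support was not tested. Of the 786 from 1301 bp to under 2000 bp, 2.29% were touched by both and 62.1% by neither. Both replicates touched 38.6% of the 793 clusters from 2000 bp to under 4000 bp, 82.8% of the 325 from 4000 bp to under 7000 bp and 100% of the 154 of 7000 bp and over. The autosomal values in the same classes were 0%, 3.53%, 41.0%, 80.4% and 97.3%. By cover of at least 50% by each replicate, X was lower from 1301 bp to under 7000 bp. The X shares there were 1.91%, 27.6% and 38.8%, against 3.38%, 33.1% and 47.6% on the autosomal intervals. At 7000 bp and over they were 66.2% and 65.5%. These differences were not tested. Wide clusters were a larger share of the list on X, with 6.01% of 7000 bp and over against 2.01% on the autosomal intervals. A wider cluster has more bases to be touched, and the part of this in the rise was not tested.

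**Figure D4:**
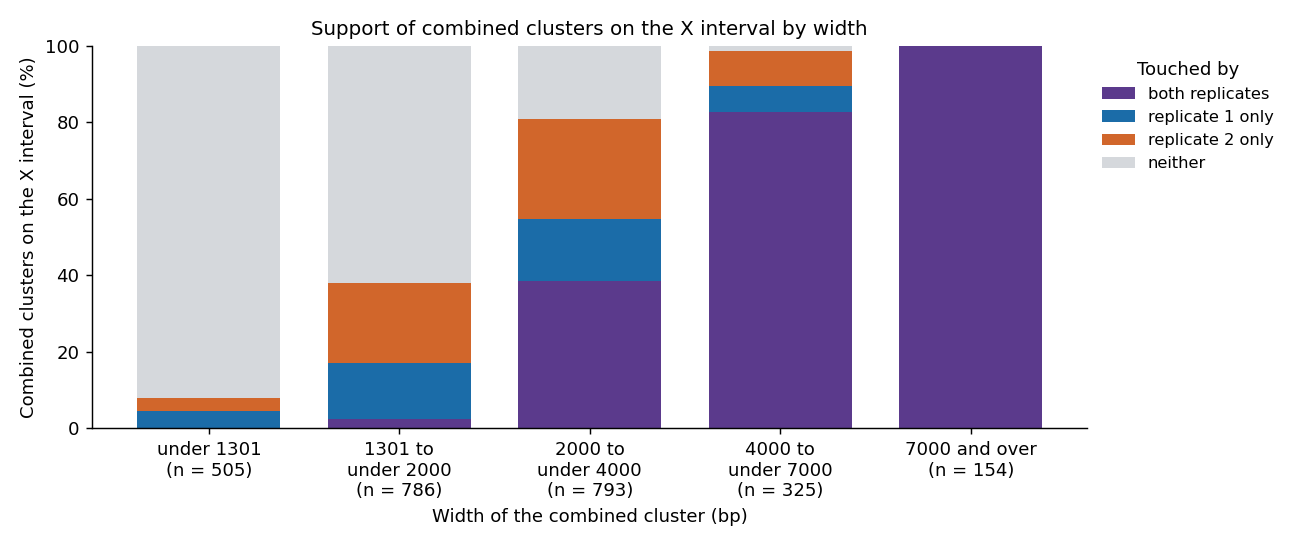
Share of the combined clusters on the X interval (%) touched by both replicates, 1 of them or neither, by cluster width (bp), with the number of clusters under each bar. Touched by both rises from 0% under 1301 bp, a class narrower than any replicate cluster, to 100% at 7000 bp and over.

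Support was also set against score, among clusters of at least 2 kb. In the classes from 0.45 to 0.75 the share touched by both replicates was lower on X, and the difference was not tested. Among combined clusters of at least 2000 bp with a score from 0.55 to under 0.65, both replicates touched 46.2% of 476 on X and 72.1% of 767 on the autosomal intervals (65.3% to 75.3% on single arms). With a score from 0.65 to under 0.75 the shares were 79.1% of 311 and 95.1% of 327, and from 0.45 to under 0.55 they were 13.5% of 230 and 32.1% of 1274. At 0.75 and over they were 96.7% and 96.6% (95.2% to 100% on single arms), so X lay within the range of the arms. By the stricter measure, at least 50% covered by each replicate, X was at 83.7% and the autosomal intervals at 94.9% in that class. When scores were ranked within each interval instead, a choice made after these values were seen, the direction reversed in the middle class: in the middle of 5 equal classes both replicates touched 57.5% of the X clusters and 47.4% of the autosomal ones. In the highest of the 5 the share was 96.9% on X and 92.9% to 95.8% on single autosomal arms. This reversal held for a touch of 1 bp and not for the stricter measure, by which the middle class stood at 24.0% on X and 26.0% to 32.2% on single autosomal arms, and the highest at 82.4% and 84.2% to 91.6%. The fixed classes and the higher scores on X thus move together, and their parts in the difference were not tested.

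**Figure D5:**
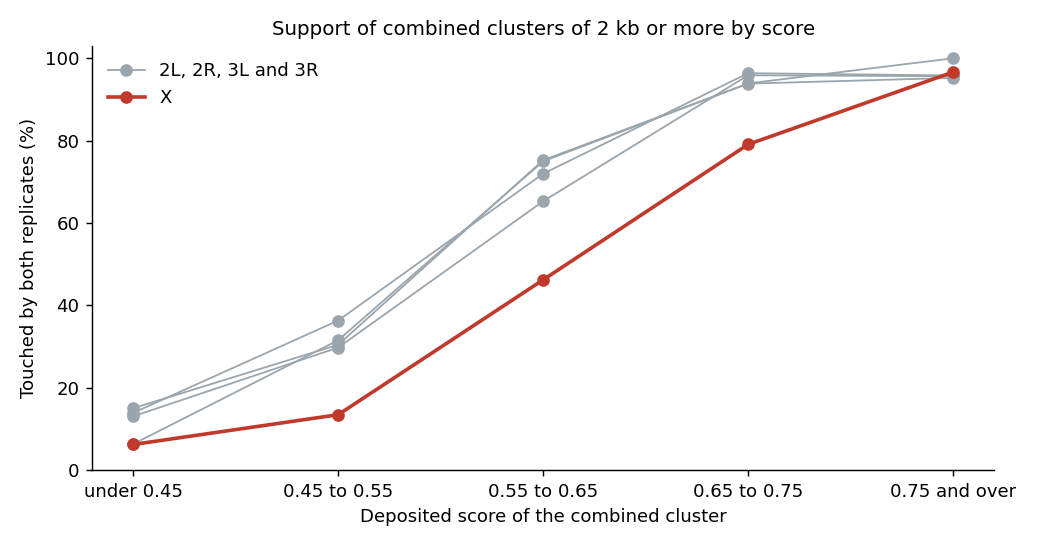
Share of combined clusters of 2 kb or more touched by both replicates (%) in classes of the deposited score, for X in red and each of the 4 autosomal arms in grey. X is below the grey points from 0.45 to 0.75 (13.5%, 46.2% and 79.1%) and among them at 0.75 and over (96.7%).

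The widest X clusters of which each replicate covered at least 50% were made of several replicate clusters. That from 16353456 to 16386254, 32799 bp and the widest of all on X, scored 0.80 and held 4 clusters of each replicate. Replicate 1 covered 56.8% of it and replicate 2 covered 85.6%. The last of the 5 widest, from 5001408 to 5021129 (19722 bp, score 0.89), lies in the hot run described above, holds 4 and 2 replicate clusters and was covered at 65.3% and 80.9%. The others held 3 to 5 clusters of each replicate: from 17867086 to 17892613 (25528 bp), from 12194892 to 12218464 (23573 bp) and from 19697836 to 19720905 (23070 bp).

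The highest scores with such support belonged to clusters of moderate width that matched 1 cluster in each replicate. The first, from 11956538 to 11959543 (3006 bp), scored 1.13, and the replicate clusters in it scored 1.30 and 1.12. The second, from 12412695 to 12418245 (5551 bp), scored 1.13, with 0.95 and 1.40 in the replicates, an order opposite to that of the first. The third, from 4793098 to 4799076 (5979 bp), scored 1.11 and was covered at 90.8% and 97.6%, and it lies just outside the start of the cold run from 4800001. The last in rank were from 19803915 to 19807276 (3362 bp, score 1.10, covered at 61.6% and 92.9%) and from 15160797 to 15166398 (5602 bp, score 1.07, covered at 83.0% and 92.6%).

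The very top of the score range had little support on X. The highest score of the interval, 2.56, belonged to a cluster of 1001 bp from 14176506 to 14177506, which neither replicate touched. Of the 10 highest-scoring clusters, 7 were touched by neither replicate and 2 by both, and their median width was 1494 bp. Of these 10, 3 were under 1301 bp, the smallest width of a replicate cluster. Among the highest 50, 37 were touched by both, and among the highest 100, 81 were. Low support also went with narrow width. At 0.75 and over on X, both replicates touched 0 of the 25 clusters under 2000 bp. They touched 231 of the 239 of at least 2000 bp. The parts of width and score in this were not tested. Untouched clusters of high score were not particular to X. At 0.75 and over, neither replicate touched 22 of 264 clusters on X (8.33%) and 41 of 222 on the autosomal intervals (18.5%). At the other end, the lowest score was 0.29, from 12467300 to 12468732 (1433 bp), and 35 clusters had the smallest width, 1001 bp, the first of them from 2252023 to 2253023.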

How the data were processed

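The values are 3 deposited lists of regions of significant enrichment, 1 per ChIP replicate and 1 combined. Per the submitters' processing notes, the aligner was Bowtie 0.12.7. Per the file headers, the build is FlyBase release 5. Which program called the regions, at what threshold, and how the lists were combined is not given in the sources used here. Each region has a score deposited by the authors, with no stated scale.

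From the lists, covered bases, gaps, windows, chains and overlaps were computed with Python 3.11.15, numpy 2.4.6, scipy 1.17.1, pandas 2.3.3 and matplotlib 3.10.9. A cluster belongs to an interval by its start, and bases past the interval end were cut. The autosomal intervals leave out 1 Mb at the telomere and 2 Mb at the centromere. The last partial window (22827 bp for 100 kb) was left out. The functions were checked on simulated lists. Library depth is unknown, so no floor is given; precision rests on 2 replicates. X and the autosomes were compared per replicate by an exact sign-flip permutation test. Named regions were the 5 first by width, score, cover, gap or chain length, plus the extremes. Members, lists and classes were chosen with earlier results of these data known, and the chain length, score classes and width classes carry no test. Sequence on release 5 was not used here.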

Additional observations from a re-analysis of the deposited data

How the results depend on the processing

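The direction of X against the autosomal intervals held in all alternatives for the ratio of cover (1.92 to 3.71), the median gap, the unevenness of 100 kb windows and the median score (a difference of 0.05 to 0.13 with X higher); p was 0.5, or 1 with a single list, so no call could change. The ratio of 3.71 came from the filter on score, which takes the median over the whole list. Scores were higher on X, so this alternative is tied to the score difference and is no separate support. The covered share of X, 16.6%, was 14.0% with clusters at or above the median score, 11.8% with those at least as wide as the median, 37.7% in the combined list, 9.87% in bases covered in both replicates and 15.1% to 18.1% with 1 replicate left out. The Jaccard index was 0.376 and 0.420 with the score and width filters and 0.416 on the whole arm. The share of combined clusters covered by each replicate was 29.1% at 1 bp, 3.04% at 80%, 30.6% to 38.4% by a single replicate, 23.5% above the median score and 31.6% above the median width. Hot windows numbered 69 of 388 at 50 kb, 7 of 97 at 200 kb, 30 when shifted by 50 kb and 36 to 38 by a single replicate; cold windows numbered 91, 10, 41 and 42 to 45. The counts at other sizes differ in part because the number of windows does. In the middle score class the difference between X and the autosomes in clusters touched by both replicates was -25.9 percentage points with fixed classes and 10.1 with ranks within each interval, a choice made after seeing the data. Depth is unknown and limits what a stretch without clusters can show. No paired analysis was possible because inputs 1 and 2 hold no values to set beside ChIP samples 1 and 2.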
